A study of Rattus norvegicus with 4 samples.

Results

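The circadian clock genes described here are Per1, Per2, Per3, Cry1, Cry2, Arntl, Clock, Nr1d1, Nr1d2 and Dbp. They were chosen by gene symbol, and earlier results of these data were known when the choice was made. Each of the 10 symbols had 1 row among the 16375 rows listed for all 4 libraries, under the NCBI gene IDs 287422 (Per1), 63840 (Per2), 78962 (Per3), 299691 (Cry1), 170917 (Cry2), 29657 (Arntl), 60447 (Clock), 252917 (Nr1d1), 259241 (Nr1d2) and 24309 (Dbp). No new gene model in the files carried the protein name of any of them. RNA-seq had been made from the hippocampus of Wistar rat pups on postnatal day 1. The dams of all 4 groups were 10 weeks old by the sample records, while the study's methods give a younger age at purchase. They had received bisphenol A (BPA), an endocrine-disrupting chemical of plastics, at 5000 µg/kg body weight by gavage each day from gestational day 1 to delivery, or an equal volume of the vehicle, ethanol diluted in corn oil. The 4 groups were control and BPA pups of each sex, with 1 library per group made from a pool of 3 hippocampi, so no group has a replicate library. The animals were kept on a regular light/dark cycle, and the hour at which each pool was collected is not given in the sources used here.

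The clock is a feedback loop of transcription. ARNTL (BMAL1) and CLOCK bind together to E-box sequences and switch on the Per and Cry genes, whose proteins return to the nucleus and repress that same pair of activators. In a second loop the REV-ERB repressors, encoded by Nr1d1 and Nr1d2, shut off Arntl, and Dbp encodes a PAR bZIP factor that carries the rhythm to genes with a D-box. In adult tissues, the hippocampus included, many of these messages rise and fall over the day, with Arntl opposite in phase to Nr1d1 and Dbp and with Cry1 late among the E-box genes. In rodents the rhythms of tissues outside the suprachiasmatic nucleus are still weak or immature around birth.

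The values are FPKM, fragments scaled to the length of the gene model and the depth of the library, which allow levels to be compared between genes. Low values fell on steps of whole fragments, and these steps gave a depth of 8638000 to 8912000 fragments per library. Markers of hippocampal excitatory neurons were present, with a summed level of 372 to 439 FPKM over the 7 of 8 genes with a row. Vip and Avp, peptides of the suprachiasmatic nucleus, were at 1.23 to 2.51 FPKM and 0.01 to 1.09 FPKM. Of the other suprachiasmatic and hypothalamic markers, Lhx1 was at 0.61 to 1.15 FPKM and Rgs16 at 2.55 to 3.87 FPKM. The thalamus markers Lhx9 and Prkcd were at 4.36 to 5.52 FPKM and 4.64 to 5.59 FPKM, and Tcf7l2 was at 1.16 to 1.65 FPKM. Neighbouring tissue differed between pools. The 8 markers of meninges and vessel wall summed to 348 FPKM in the female control library and to 70.5 to 88.3 FPKM in the other 3 libraries. The 9 choroid plexus markers, led by Ttr, summed to 277 FPKM in control males, 719 in BPA males, 19.8 in control females and 53.5 in BPA females. Without Ttr the other 8 choroid plexus genes were each higher in BPA in males, and 7 of the 8 were lower in BPA in females. In bulk samples, fewer cells of a type and less RNA per cell cannot be told apart.

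All 10 clock genes were measured in every library. Nr1d1 had the highest level, with a mean of 28.3 ± 1.77 FPKM (SD, n = 4 libraries), followed by Cry2 with 23.7 ± 3.32 FPKM. A gap separated these from the rest: Arntl had 9.67 ± 0.580 FPKM, Per1 8.72 ± 0.488 FPKM, Cry1 6.49 ± 1.98 FPKM and Dbp 5.48 ± 0.776 FPKM. Nr1d2 (5.08 ± 0.688 FPKM), Per2 (5.01 ± 1.31 FPKM), Clock (3.80 ± 0.615 FPKM) and Per3 (2.21 ± 0.612 FPKM) closed the order. The SDs in this order span both sexes and both treatments. Ranges did not overlap between Cry2 and Arntl or between Clock and Per3, whereas every other pair of neighbours overlapped, and Dbp was above Nr1d2 in only 2 of 4 libraries. Of all rows listed in the 4 files, 81.1% had a lower mean than Nr1d1, 77.4% had a lower mean than Cry2 and 28.2% had a lower mean than Per3.

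The spread over libraries differed among the genes. Per1, Arntl and Nr1d1 were the steadiest, and the highest library was 1.14 times the lowest for Per1, 1.15 times for Arntl and 1.15 times for Nr1d1. Cry1 and Per3 varied most, by 2.02 and 2.05 times, followed by Per2 with 1.84 times. Per3 rests on few fragments, an estimated 42 to 87 per library, and Dbp on 64 to 88. Cry2 rests on 708 to 967 fragments.

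**Figure D1:**
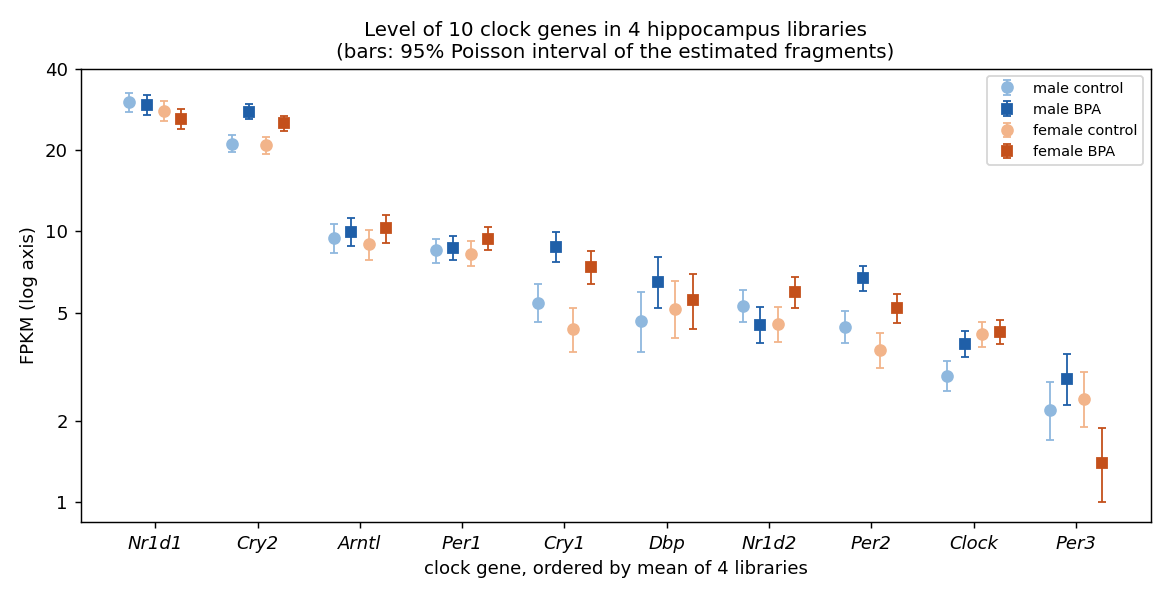
FPKM of each clock gene (vertical axis, logarithmic) in the 4 hippocampus libraries, with genes ordered by their mean and bars giving the 95% Poisson interval of the estimated fragments, which covers counting error only. Both BPA libraries (squares) lie above both control libraries (circles) for Cry1, Cry2 and Per2, whereas Nr1d1 stays between 26.1 and 30.1 FPKM.

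Short stretches of promoter are shown to let the elements of the loop be read beside the genes. RefSeq promoter windows of the rat assembly GRCr8, from 250 bases before to 50 bases after a start site, were found for 9 of the 10 genes, as 11 windows, with Arntl listed as Bmal1. Each line gives 30 bases, 5′ to 3′ on the strand of the gene, with the matched letters in capitals. The first pair are from Per2, chr9:99497038-99497067 and chr9:99497167-99497196, minus strand. They hold an E′-box (CACGTT), whose first base is at -62 from the start site, and a D-box (TTATGTAA), whose first base is at -192.
Per2 E′-box: aacgcgcgcggtCACGTTttccactatgtg
Per2 D-box: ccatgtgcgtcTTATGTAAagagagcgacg
Cry2 holds the E′-box at -212, read on the other strand (AACGTG), in chr3:98860632-98860661, minus strand.
Cry2 E′-box: acacatggtgggAACGTGagggggcggggc
Nr1d1 holds the canonical E-box (CACGTG) at -191 in 1 of its 2 windows, in chr10:84229628-84229657, minus strand.
Nr1d1 E-box: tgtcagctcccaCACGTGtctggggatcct
Arntl holds an element of the REV-ERB and ROR receptors (TAGGTCA) at -16, in chr1:176766298-176766327, plus strand.
Arntl REV-ERB/ROR element: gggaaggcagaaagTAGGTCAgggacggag

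On both strands, the E-box CACGTG was in 1 of 11 clock gene windows and in 6.42% of all 33469 windows, and the E′-box CACGTT in 3 of 11 (Per2, Cry2 and Nr1d1) and in 4.83%. The D-box TTATGTAA was in 1 of 11 and in 0.893%, and TAGGTCA in 1 of 11 and in 2.63%. The D-box variant TTACGTAA, the receptor element TGGGTCA and the CRE TGACGTCA, a CREB site, were in 0 of 11 windows and in 0.12%, 4.09% and 1.83% of all windows. None of the matches overlapped another. A match describes letters in these windows and not binding, and elements outside them were not searched.

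The first comparison asks whether prenatal BPA exposure changed the clock genes in pups of both sexes. The messages of 3 repressors, Cry1, Per2 and Cry2, were higher in the BPA library of each sex, by 20.5% to 69.4%, while Nr1d1, Arntl and Per1 moved by at most 14.6% in either sex. Both BPA libraries were above both control libraries for 6 of the 10 genes (Per1, Per2, Cry1, Cry2, Arntl and Dbp) and below them for 0 of 10. Among the 13542 rows tested, 13.8% had both BPA libraries above and 19.9% below. The 10 genes together summed to 94.2 FPKM in control males, 109 in BPA males, 90.3 in control females and 101 in BPA females. No clock gene passed an adjusted p under 0.05 when the 2 BPA libraries were compared with the 2 control libraries by limma on log2(FPKM + 1), with Benjamini-Hochberg adjustment over all rows, and the background was 0.0%. At an unadjusted p under 0.05 limma gave 3 of 10 clock genes, all higher in BPA, where 4.7% of all rows passed and 1.6% passed and were higher. With sex as a covariate it gave 0 of 10 at an adjusted p under 0.05 (0.0148% of all rows) and the same 3 at an unadjusted p under 0.05 (8.98% of all rows, 3.6% with the higher level in BPA). Without sex as a covariate, leaving out the female control library gave log2 differences of 0.49 for Cry1, 0.31 for Cry2 and 0.35 for Per2. Leaving out the male BPA library gave 0.51, 0.25 and 0.30. All were below the values with 4 libraries (0.62, 0.32 and 0.46). Each of these fits has 1 library in a group, so it cannot show whether the unadjusted calls rest on a single library. The median log2 difference was 0.14 over the clock genes and -0.02 over all rows. The smallest two-sided p that an exact permutation test can reach with so few libraries is 0.33. Cell type markers differed between the treatments as well. Of the 7 hippocampal neuron markers, 1 was higher and 1 lower in male BPA by more than 0.25 on the log2 scale. In female BPA 2 were higher (Neurod2 and Tbr1) and 2 lower (Prox1 and Zbtb20) by that size. Prox1 was lower by that size in both sexes (-0.25 in males and -0.68 in females). All 9 choroid plexus markers were higher in male BPA, and in female BPA Ttr and Otx2 were higher and the other 7 lower. In the same comparison, 4 of the 6 markers of astrocytes and radial glia were lower in both BPA libraries, and all 8 meningeal markers were lower in female BPA by more than 0.25 on the log2 scale. Clock genes are expressed in those cells too, and the part of these differences in the clock gene values was not tested.

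Cry1 encodes a cryptochrome, the strongest repressor of the ARNTL and CLOCK pair. It was at 5.46 FPKM in control males and 8.79 in BPA males, and at 4.35 in control females and 7.37 in BPA females. Both BPA libraries were above both control libraries, and the gap between the treatments was wider than that between the sexes. The male ratio of BPA to control was 1.61 (95% interval from counting error 1.31 to 1.99) and the female ratio was 1.69 (1.34 to 2.14). With the sexes combined, the log2 difference in limma was 0.62 (standard error 0.172, unadjusted p 0.00936, adjusted p 0.973), and leaving out the female control library gave 0.49 (limma adjusted p 0.978) and leaving out the male BPA library gave 0.51 (0.926). With sex as a covariate the adjusted p for Cry1 in limma was 0.357, the lowest of the 10 genes.

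Per2, the gene with the E′-box and D-box stretches, encodes a period protein that enters the repressor complex with the cryptochromes. It was at 4.44 FPKM in control males and 6.73 in BPA males, and at 3.65 in control females and 5.21 in BPA females. The groups did not overlap, and within each treatment the male library was the higher. The ratio was 1.52 in males (1.28 to 1.80) and 1.43 in females (1.18 to 1.73). The log2 difference over both sexes in limma was 0.46 (standard error 0.188, unadjusted p 0.0450, adjusted p 0.973), and it was 0.35 without the female control library and 0.30 without the male BPA library.

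Cry2, the second cryptochrome gene, was at 21.1 FPKM in control males and 27.7 in BPA males, and at 20.8 in control females and 25.1 in BPA females. The 2 control libraries were close together and below both BPA libraries. The ratio was 1.31 in males (1.19 to 1.45) and 1.20 in females (1.09 to 1.33), and the log2 difference over both sexes in limma was 0.32 (standard error 0.112, unadjusted p 0.0266, adjusted p 0.973). It was 0.31 without the female control library and 0.25 without the male BPA library. The intervals exclude a ratio of 1 for Cry1, Per2 and Cry2 in both sexes. They say nothing of the spread between pools, which was not measured. The share of all rows whose interval excludes 1 in both sexes was not counted. The intervals therefore cannot show whether these genes stand out from other rows.

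**Figure D2:**
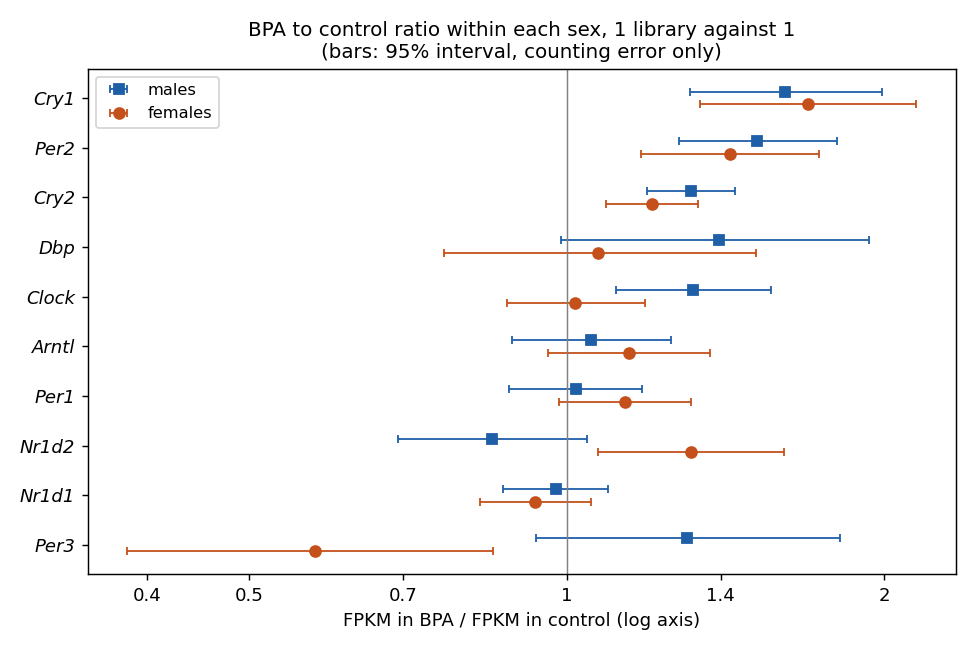
Ratio of FPKM in BPA to FPKM in control (horizontal axis, logarithmic) for each clock gene in males (squares) and females (circles), 1 library against 1, with bars giving the 95% interval from counting error alone. Cry1, Per2 and Cry2 lie right of 1 with their whole interval in both sexes, whereas the intervals of Nr1d1, Arntl, Per1 and Dbp include 1 in both. The share of all rows whose interval excludes 1 in both sexes was not counted.

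Per1, the period gene that also responds acutely to CREB and glucocorticoid signals, was at 8.51 FPKM in control males and 8.68 in BPA males, and at 8.28 in control females and 9.41 in BPA females. Its groups did not overlap, but the ratios of 1.02 (0.882 to 1.18) in males and 1.14 (0.983 to 1.31) in females lie within counting error of 1. The limma log2 difference was 0.10 (standard error 0.133, adjusted p 0.980), and it was 0.043 without the female BPA library and 0.15 without the male BPA library. Of the 12 immediate early genes, 7 passed the filter on low values, and of these 1 was higher in male BPA and 1 higher and 2 lower in female BPA by more than 0.25 on the log2 scale, where 11.9% of all rows were higher and 12.6% lower by that size in males and 10.9% and 21.2% in females. Of the 8 glucocorticoid responsive genes, 2 were lower in male BPA by that size, and 2 were higher and 1 was lower in female BPA.

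Per3, a period gene that the core loop can do without, went opposite ways in the sexes. It was at 2.19 FPKM in control males and 2.85 in BPA males, and at 2.41 in control females and 1.39 in BPA females. The female BPA library was the lowest of the 4 and the male BPA library the highest. The ratio was 1.30 in males (0.934 to 1.82) and 0.577 in females (0.383 to 0.852), and over both sexes the limma log2 difference was -0.12 (standard error 0.280, adjusted p 0.988).

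Of the activators, Arntl was at 9.47 FPKM in control males and 9.99 in BPA males, and at 8.95 in control females and 10.3 in BPA females. Both BPA libraries were the higher, with ratios of 1.05 (0.887 to 1.26) in males and 1.15 (0.960 to 1.37) in females. Clock was at 2.92 FPKM in control males and 3.85 in BPA males, and at 4.18 in control females and 4.26 in BPA females. Here the male control library stood below the other 3, so the ratio was 1.32 in males (1.11 to 1.56) and 1.02 in females (0.877 to 1.19). The limma log2 difference over both sexes was 0.12 for Arntl (adjusted p 0.973) and 0.16 for Clock (adjusted p 0.974), and for Clock it was -0.036 without the male control library.

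The REV-ERB genes of the second loop differed from each other. Nr1d1 was at 30.1 FPKM in control males and 29.4 in BPA males, and at 27.9 in control females and 26.1 in BPA females. The groups overlapped, and the ratios were 0.976 (0.869 to 1.09) in males and 0.933 (0.827 to 1.06) in females. Nr1d2 was at 5.32 FPKM in control males and 4.52 in BPA males, and at 4.54 in control females and 5.95 in BPA females. It was lower in BPA in males, with a ratio of 0.850 (0.692 to 1.05), and higher in females, with a ratio of 1.31 (1.07 to 1.61). The limma log2 differences over both sexes were -0.06 for Nr1d1 and 0.07 for Nr1d2 (adjusted p 0.988 for each).

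Dbp was at 4.67 FPKM in control males and 6.51 in BPA males, and at 5.19 in control females and 5.56 in BPA females. Its groups did not overlap, but the male ratio of 1.39 (0.988 to 1.93) and the female ratio of 1.07 (0.764 to 1.51) have wide intervals, since the transcript model is short and few fragments fell on it. The limma log2 difference was 0.24 (standard error 0.162, adjusted p 0.973), and 0.15 without the male BPA library.

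Within a sex each comparison sets 1 library against another, and no test was made. In males 6 of 10 clock genes (Per2, Per3, Cry1, Cry2, Clock and Dbp) were higher in BPA by more than 0.25 on the log2(FPKM + 1) scale and 0 were lower by that size, where 11.9% of all rows were higher and 12.6% lower. In females 4 of 10 (Per2, Cry1, Cry2 and Nr1d2) were higher and 1 (Per3) was lower, where 10.9% of all rows were higher and 21.2% lower. After quantile normalization, 1984 rows were higher and 2024 lower in female BPA, in place of 1481 and 2874. Regardless of direction, 6 of 10 were past this size in males and 5 in females, where 24.5% and 32.2% of all rows were. Cry1, Per2 and Cry2, 3 of 10, were higher by this size in each sex and 0 were lower in each, where 2.36% of all rows were higher and 4.76% lower in each. Their differences were 0.60 in males and 0.65 in females for Cry1, 0.51 and 0.42 for Per2, and 0.38 and 0.26 for Cry2. All 3 were past it in each sex after quantile normalization as well. Counting any difference above 0, 8 of 10 clock genes were higher in BPA in males (49.2% of all rows), 8 in females (43.2%) and 7 in both (24.4%), and 2 had opposite signs in the sexes (43.2%).

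**Figure D3:**
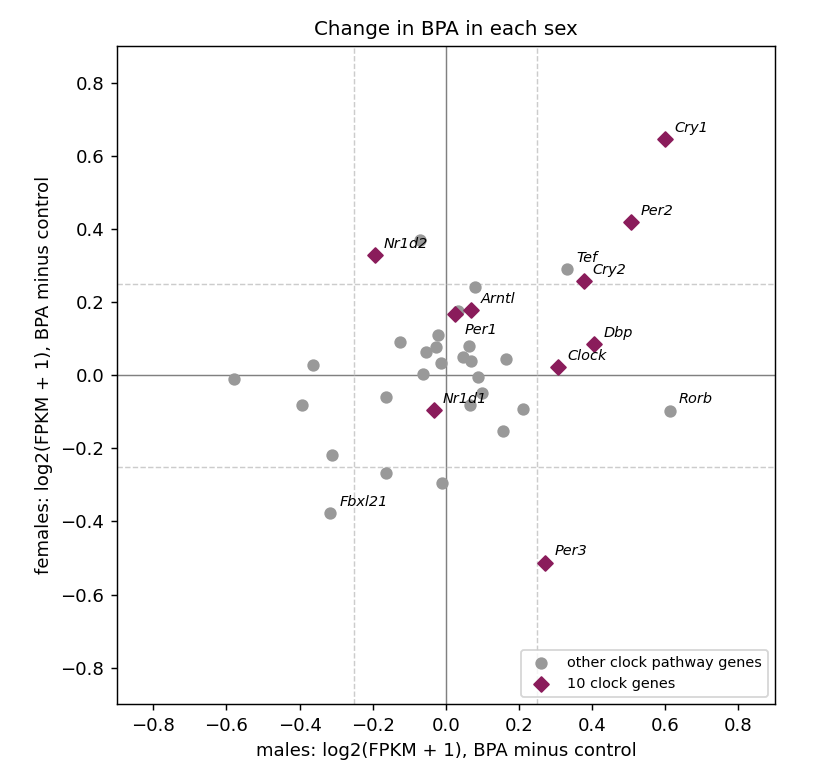
Log2(FPKM + 1) in BPA minus control in males (horizontal axis) and females (vertical axis) for the 10 clock genes (diamonds) and the 28 other clock pathway genes that passed the filter on low values (circles). Dashed lines mark 0.25 in either direction, and Cry1, Per2, Cry2 and Tef are the genes beyond them at the upper right, with Fbxl21 alone beyond them at the lower left.

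The female libraries were also compared with the male libraries, since the study concerns sex differences. None of the 10 clock genes passed an adjusted p under 0.05 in limma (background 0.00738%), and 0 of 10 had an unadjusted p under 0.05, against 10.6% of all rows. With treatment as a covariate 0 of 10 passed either threshold in limma, where 0.406% and 14.3% of all rows did. Clock was the 1 gene with both female libraries above both male libraries (19.8% of all rows), at a log2 difference of 0.26 (standard error 0.192). Nr1d1 was the 1 gene with both female libraries below both male libraries (22.5% of all rows). Its log2 difference was -0.13 (standard error 0.0890). With 1 library left out, the difference ranged from 0.11 to 0.41 for Clock and from -0.18 to -0.086 for Nr1d1.

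Because many clock genes rise and fall together or in opposition over the day, their ratios within a library are shown beside the levels. The log2 ratio of Nr1d1 to Arntl was 1.67 in control males and 1.55 in BPA males, and 1.64 in control females and 1.34 in BPA females. It was lower in both BPA libraries than in both control libraries, over a range of 0.32. The log2 ratio of Dbp to Arntl was higher in BPA in males (-1.02 to -0.62) and lower in females (-0.79 to -0.88). That of Per1 to Arntl stayed between -0.20 and -0.11. No counting interval was made for these ratios within a library, each of which carries the error of 2 genes. Dbp rests on 64 to 88 fragments per library and Arntl on 240 to 279, and small shifts were not tested against counting error. The ratio of Cry1 to Arntl was -0.79 against -0.18 in control and BPA males, and -1.04 against -0.48 in control and BPA females. The ratio of Cry1 to Nr1d1 was -2.46 in control males and -2.68 in control females, against -1.74 and -1.82 in the BPA libraries. It sets the clock gene with the largest limma log2 difference against the only one lower in BPA in both sexes. A wide gap between treatments therefore follows from the choice of pair. The part of collection time in these differences was not tested, and with 1 pool per group the hour of a pool and its treatment cannot be told apart.

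**Figure D4:**
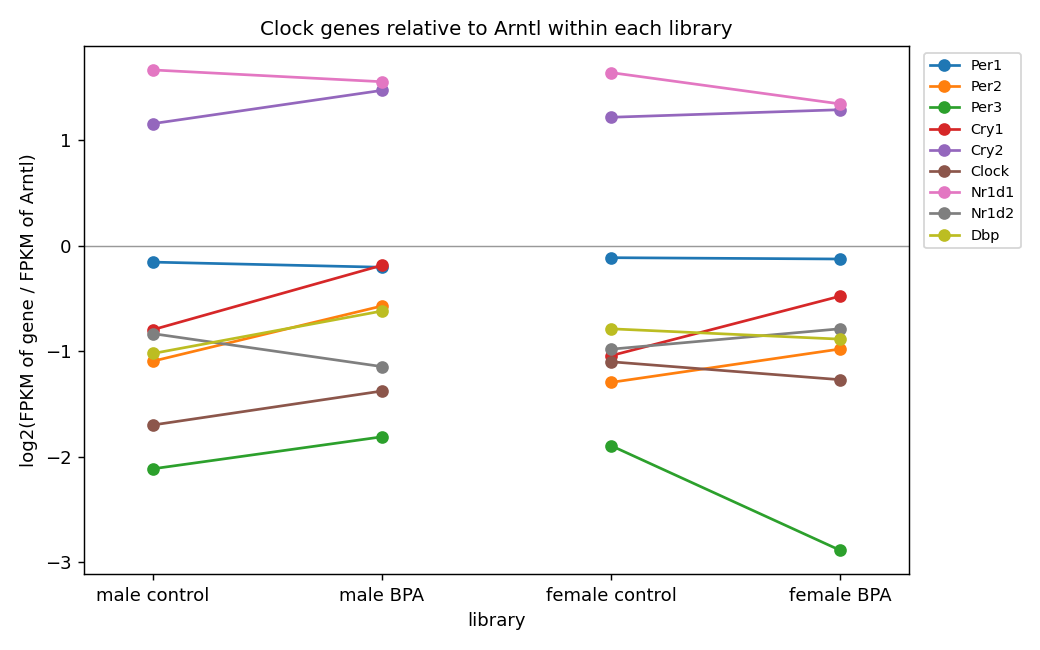
Log2 ratio of the FPKM of each of the other 9 clock genes to that of Arntl within each library (vertical axis), with lines joining control and BPA of 1 sex. Cry1 and Per2 are nearer to Arntl in the BPA library of both sexes, while Per1 stays between -0.20 and -0.11.

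A list of 34 further genes covered activators, nuclear receptors, PAR bZIP factors, repressors, kinases, ubiquitin ligases and input genes, and 29 had a row and 28 passed the filter on low values. In limma 0 of 28 passed an adjusted p under 0.05 and 1 had an unadjusted p under 0.05, against 4.7% of all rows. In males 2 of 28 were higher and 5 lower in BPA by more than 0.25 on the log2 scale, and in females 2 were higher and 3 lower, where the shares of all rows were again 11.9% and 12.6% in males and 10.9% and 21.2% in females. The medians were -0.01 in males and 0.01 in females. Both BPA libraries were above both control libraries for 5 of 28 and below them for 3, against 13.8% and 19.9% of all rows.

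The 1 gene of the list that was higher by that size in both sexes was Tef, which encodes a PAR bZIP factor of the same family as DBP. Tef was at 16.9 FPKM in control males and 21.5 in BPA males, and at 17.0 in control females and 21.1 in BPA females. The 2 control libraries were close together and so were the 2 BPA libraries, and the limma log2 difference was 0.31 (standard error 0.109, unadjusted p 0.0264, adjusted p 0.973). Fbxl21, which encodes an F-box protein that acts on cryptochrome stability, was the 1 gene lower by that size in both sexes. It was at 2.61 FPKM in control males and 1.90 in BPA males, and at 2.78 in control females and 1.91 in BPA females (limma log2 difference -0.35, standard error 0.203, adjusted p 0.973). The largest male difference on the list was that of Rorb, a nuclear receptor gene of the second loop, at 0.78 FPKM in control males and 1.72 in BPA males, and at 1.45 in control females and 1.29 in BPA females. The casein kinases that mark PER proteins for decay were well expressed and steady, with Csnk1d at 59.9 to 62.8 FPKM and Csnk1e at 124 to 134 FPKM over the 4 libraries.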

How the data were processed

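The authors deposited 1 FPKM value per gene and library, to 2 decimals and with 0.01 as the lowest value, for 4 libraries of pooled hippocampi. The submitters' processing notes name HISAT 0.1.6, Bowtie2 2.2.5, RSEM and the genome build rn6, without their order. No counts were used. Files were joined on gene ID, and rows with a mean of at least 1 FPKM were compared as log2(FPKM + 1), which understates changes of low genes, with limma 3.58.1 (R 4.3.3, eBayes with trend), 2 BPA against 2 control libraries and 2 female against 2 male libraries, without covariates. For BPA against control, limma took its error from the male and female library of each treatment, since no group has a replicate library. For females against males, the error came from the control and BPA library of each sex. With the covariate, the error came from how the difference between treatments varied between the sexes. The p-values therefore do not measure the spread between replicate pools. Depth was taken as the fragment total that best turned low FPKM of gene-ID rows of 300 to 1500 bases into whole fragments, and 94.4% to 98.5% lay within 0.15 of a whole number (30% if spread evenly). Intervals are exact at 95% and cover counting error only. The limma fit and the depth were tested on simulated data. All 10 clock genes are named, and of the wider list those past 0.25 in the same direction in both sexes or largest in a sex. Csnk1d and Csnk1e were named after their values were seen. The genes and lists were chosen with earlier results of these data known. Alternatives were quantile normalization, other filters and pseudocounts, the other factor as a covariate, a larger fold and leaving out each library. Python 3.11.15 was used with scipy 1.17.1, numpy 2.4.6 and pandas 2.3.3, and figures were drawn in matplotlib 3.10.9.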

Additional observations from a re-analysis of the deposited data

Results flagged for a closer look

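The change in BPA had opposite signs in the sexes for Per3 (log2 difference 0.27 in males and -0.51 in females) and Nr1d2 (-0.20 and 0.33), 2 of the 10 clock genes, where 43.2% of all rows had opposite signs. Of the other clock pathway genes named, Rorb also did (0.61 and -0.10), as did Csnk1e by smaller amounts (-0.022 and 0.11). The difference between the sexes was not tested, since each sex has 1 library per treatment.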

How the results depend on the processing

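No clock gene passed an adjusted p under 0.05 in limma under any of the alternatives run, and the lowest was 0.357, for Cry1 with sex as a covariate. Over all rows the count for BPA against control was 0, and 2 with sex as a covariate. It ranged from 0 to 3 when each library was left out, with 3 without female control, 1 without male BPA and 0 without the other libraries. For females against males it was 1, and 21 at a mean of at least 5 FPKM and 55 with treatment as a covariate. It ranged from 1 to 2 when each library was left out, with 2 without female control. The causes were not tested. Of the 10 clock genes, 3 had an unadjusted p under 0.05 for BPA in limma. In alternatives chosen after seeing the data, this was 2 or 3 with other filters, pseudocounts, quantile normalization or the covariate, and ranged from 0 to 3 when each library was left out, with 0 without male BPA or without female control. Beyond 0.25 on the log2 scale in either direction were 3324 in males and 4355 in females of all rows, 1548 and 2299 at a mean of at least 5 FPKM, which tests fewer rows, and 975 and 1349 past 0.5. Past 0.5 were 2 clock genes in males (Cry1 and Per2) and 2 in females (Cry1 higher and Per3 lower). Both BPA libraries, or the 1 left, were above the controls for 6 to 8 clock genes when each library was left out, where 28.2% to 31.0% of all rows were, and this alternative was chosen after seeing the data. Cry1, Per2, Cry2, Per1, Arntl and Dbp were higher in BPA under each alternative run. With a library left out, the log2 difference over both sexes moved from its main value by over 1.5 times for Per2, Dbp and Per1. Its range was 0.30 to 0.62 for Per2, 0.15 to 0.34 for Dbp and 0.043 to 0.15 for Per1. The range was 0.49 to 0.76 for Cry1, 0.25 to 0.39 for Cry2 and 0.087 to 0.16 for Arntl.

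Leaving out 1 library turned the sign of some small differences between treatments: Per3 ranged from -0.46 to 0.22, Clock from -0.036 to 0.37, Nr1d1 from -0.15 to 0.018 and Nr1d2 from -0.10 to 0.23. Between the sexes it turned the sign of Per1 (-0.048 to 0.12), Cry1 (-0.57 to 0.074), Cry2 (-0.27 to 0.11), Arntl (-0.11 to 0.070), Nr1d2 (-0.092 to 0.23) and Dbp (-0.24 to 0.17). Since no new gene model matched a clock gene, summing models gave the values as reported. With 1 library left out, the lone library of a group is assumed to vary like the others.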
